A study of Mus musculus with 39 samples.

Results

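The RNAs described here encode the enzymes of mitochondrial fatty acid oxidation and the enzymes around it: the carnitine shuttle, the acyl-CoA synthetases that activate fatty acids, the β-oxidation spiral, its electron transfer proteins and ketone body metabolism. They were 33 genes chosen by name and role. All 33 were found among the 13230 genes present in the tables of both gradients, and all 33 were among the 11754 genes tested. None belonged to the 50 most abundant genes. Their mean levels ran from 2.61 TPM for Acsl3 to 2316 TPM for Acaa2.

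The values came from ATLAS-Seq of mouse liver, in which tissue is broken with beads and without detergent, nuclei are removed, and the remaining lysate is spun through a 10–50% sucrose gradient whose fractions are sequenced in turn. All libraries were of the same condition, liver of wild-type female FVB mice, with no treatment or age named in the labels. Gradient 1 came from 1 mouse and gave 17 libraries (fractions 4 to 19 and fraction 21), and gradient 2 came from another mouse and gave 22 libraries (fractions 3 to 24). Fraction numbers increase with sucrose density. TPM (transcripts scaled to a fixed total per library) is a share of the RNA in a fraction, corrected for transcript length, so a higher TPM in a dense fraction means a larger share of that fraction's RNA and not more molecules. The libraries summed to between 998099 and 999202 TPM. TPM holds no read counts, so the depth behind each value is unknown, and the spread between the 2 gradients is the only error available. As in any bulk sample, fewer cells of a type and less RNA per cell cannot be told apart.

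The tissue label was checked against cell type markers. The 6 hepatocyte markers summed to between 10955 and 56604 TPM in every library, 25169 to 56604 in the light, 10955 to 18209 in the middle and 16269 to 34407 in the dense fractions. The 5 Kupffer cell markers summed to 112–163 TPM in the light fractions, 37.0–57.0 in the middle and 40.0–51.9 in the dense fractions, and the 4 stellate cell markers to 45.8–90.8 TPM in the light and 9.79–25.0 in the dense fractions. The 4 sinusoidal endothelial markers summed to 28.4–61.5 TPM in the light, 19.6–55.5 in the middle and 14.1–33.1 in the dense fractions. The 3 cholangiocyte markers in both tables (Epcam was not in both) stayed between 2.69 and 8.85 TPM, and 2 of the 4 red blood cell markers were in both tables, at 253–494 TPM in the light, 124–449.6 in the middle and 57.7–99.5 in the dense fractions. None of the 3 adipocyte or the 3 muscle markers was in both tables. Kupffer, stellate and red blood cell markers were thus higher in the light than in the dense fractions, endothelial markers had a higher range there that overlapped with the dense one, hepatocyte markers were higher in the light than in the middle fractions, and most of the RNAs described here were low in the light fractions. Their part in the results was not tested.

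Fatty acids are activated to acyl-CoA at the outer mitochondrial membrane or the endoplasmic reticulum (ER), carried into the matrix as carnitine esters, and shortened there in repeated rounds of dehydrogenation, hydration, a second dehydrogenation and thiolysis. In the fasting liver, much of the resulting acetyl-CoA is turned into ketone bodies and exported to other tissues. The matrix enzymes are made in the cytosol from nuclear genes and most enter through an N-terminal presequence that is rich in arginine and can form an amphipathic helix, whereas proteins of the outer membrane and the ER usually carry no such presequence.

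The starts of the open reading frames are shown for selected members with and without enrichment in the dense fractions, because the presequence, where there is one, is encoded there. Each line gives the first 10 codons from the GENCODE M21 annotation of GRCm38 (the same assembly as mm10), with arginine codons in capitals. The 4 dehydrogenases of straight-chain acyl-CoA, the isomerase Eci1 and the medium-chain synthetase Acsm1, all higher in the dense fractions, start as follows.
Acadvl: atgcagtcggctCGGatgaccccgagtgtg
Acadl: atggctgcgCGCctgctcctcCGCtccctg
Acadm: atggcagcggcgttcCGCAGAggctgcAGG
Acads: atggctgccgccttgctcgccCGGgccCGT
Eci1: atggcgctggctgctgcgCGTCGCcttctg
Acsm1: atgcagtggctgaagagtttccagatctgc
They lie at chr11:70015295-70015324 on the minus strand for Acadvl, chr1:66863220-66863249 on the minus strand for Acadl, chr3:153944396-153944425 on the minus strand for Acadm, chr5:115119241-115119270 on the minus strand for Acads, chr17:24426703-24426732 on the plus strand for Eci1 and chr7:119622510-119622539 on the plus strand for Acsm1. Acsm1 has no arginine codon among these 10, nor have Acat1 and Acad11, which were also higher in the dense fractions. The next 3, an outer-membrane transferase and 2 membrane-bound synthetases, were not higher in the dense fractions and have no arginine codon among the 10, whereas Crat, also not higher, has 1.
Cpt1a: atggcagaggctcaccaagctgtggccttc
Acsl3: atgaataaccacgtatcttcaacaccatca
Acsl5: atgctttttatttttaacttcttgttttcc
They lie on the plus strand at chr19:3349202-3349231 for Cpt1a, chr1:78681633-78681662 for Acsl3 and chr19:55268673-55268702 for Acsl5. The last pair is shown because the genes are neighbours with nearly the same start, so that their reads may be hard to assign.
Acad10: atgttggtaAGAAGActtttccagccttcc
Acad12: atgtgggtaAGAAGActtttccagccttcc
Acad10 lies at chr5:121656171-121656200 and Acad12 at chr5:121614217-121614246, both on the minus strand. The starts share 29 of 30 bases and differ by T5G, counted from 1 at the A of the start codon with the base of Acad10 first.

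To ask where along the gradient these RNAs were enriched, fractions were grouped into a light zone (4 to 7), a middle zone (10 to 13) and a dense zone (16 to 19), each averaged per gradient, and zones were compared with limma on log2(TPM + 1), with n = 2 gradients and Benjamini-Hochberg adjustment over all genes tested. A log2 difference on this scale understates the change of genes with a low TPM.

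Between the dense and the light zone, 28 of the 33 RNAs were higher in the dense zone at an adjusted p under 0.05, against 22.3% of all genes tested. Acsl3 was lower, against 39.6% of all genes, and Acsl4, Acsl5, Cpt1a and Crat did not pass. After quantile normalization of the libraries, which evens out the overall distribution, 27 were higher, against 30.7% of all genes, and 0 lower, against 29.9%, in limma. The median log2 difference over the 33 was 1.97, whereas over all genes tested it was −0.43. The 5 exceptions came from the carnitine shuttle and the long-chain acyl-CoA synthetases, and every member of the β-oxidation spiral, electron transfer, ketone body and medium-chain synthetase groups was among the 28. In 27 RNAs, each of the 4 dense fractions exceeded each of the 4 light fractions in both gradients, against 21.0% of all genes. The reverse order was found for Acsl3 and Acsl5, against 34.1% of all genes.

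**Figure D1:**
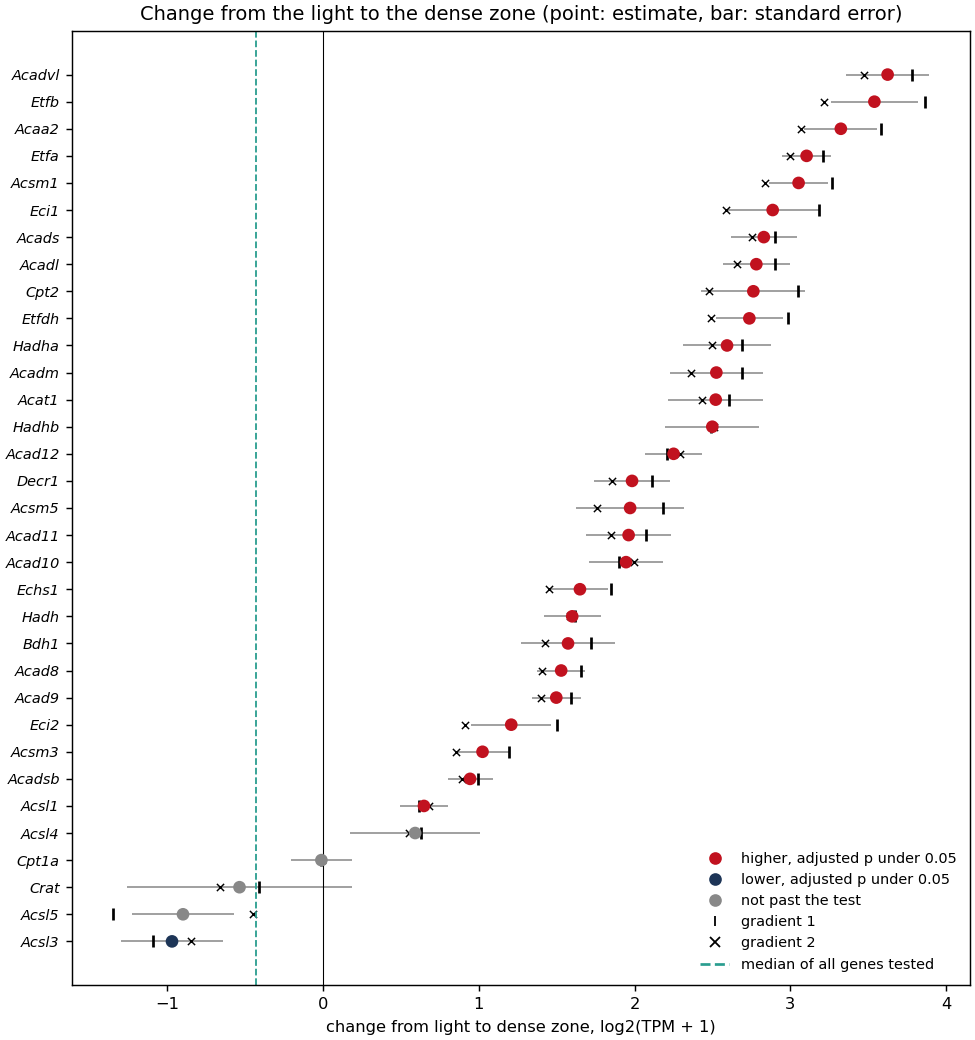
Dense minus light difference of the 33 RNAs on the log2(TPM + 1) scale, ordered by size, with the limma estimate as a point colored by the test, standard errors as bars and 1 mark per gradient (n = 2). The dashed line is the median of all genes tested, −0.43, and 30 of the 33 RNAs lie above it, all but Acsl3, Acsl5 and Crat.

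The gradient pairs the zones, because each gradient was loaded with the homogenate of 1 mouse. With the gradient as a block, 29 RNAs were higher (30.5% of all genes) and 3 were lower (50.0% of all genes): Acsl4 joined those that were higher (adjusted p = 0.00301 in limma), and Crat (adjusted p = 0.00645) and Acsl5 (adjusted p = 0.0136) joined Acsl3 among those that were lower.

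The acyl-CoA dehydrogenases of straight chains carry out the first step of each round of oxidation, each for a range of chain lengths. All 4 were higher in the dense zone, with a median log2 difference of 2.81. Acadvl, which acts on very long chains, had the largest difference of the 33 on the log2(TPM + 1) scale. In gradient 1, Acadvl measured 69.9, 85.4, 150.3 and 262 TPM in light fractions 4 to 7 and 1658, 1788, 1638 and 1779.5 TPM in dense fractions 16 to 19. In gradient 2, it measured 65.5, 81.1, 115 and 193 TPM in the light and 1090.0, 1202, 1209.6 and 1157 TPM in the dense fractions. The zones were far apart in both gradients and TPM increased at every step within the light zone. The log2 difference was 3.62 (SE 0.26, limma adjusted p = 0.000342), and the TPM ratio was 11.2 ± 1.29 (SD, n = 2 gradients). Acads, Acadl and Acadm, for short, long and medium chains, had log2 differences of 2.83 (SE 0.21), 2.78 (SE 0.22) and 2.52 (SE 0.30), with TPM ratios of 6.80 ± 0.415, 6.89 ± 0.762 and 5.78 ± 0.887 (SD, n = 2 gradients).

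Electrons from these dehydrogenases pass to the electron transfer flavoprotein, a dimer of the products of Etfa and Etfb, and from it through Etfdh to ubiquinone. All 3 RNAs were higher in the dense zone, with a median log2 difference of 3.10, the highest of the groups by role. Etfb measured 155, 144, 247 and 377 TPM in the light and 3139.9, 3099, 3297 and 2973 TPM in the dense fractions of gradient 1. In gradient 2 it measured 151, 147, 204 and 349.9 TPM in the light and 2409, 2169, 1751 and 1315 TPM in the dense fractions. The light values of the 2 gradients lay close together, and within the dense zone TPM went down at each step in gradient 2 but not in gradient 1. The log2 difference of Etfb was 3.54 (SE 0.28, limma adjusted p = 0.00039) with a TPM ratio of 11.3 ± 3.23 (SD, n = 2 gradients). Etfa differed by 3.10 (SE 0.16) and Etfdh by 2.74 (SE 0.22) on the log2 scale, at 8.50 ± 0.791 and 6.41 ± 1.43 times the TPM of the light zone.

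The later steps of each round are catalysed by Echs1 (hydration of shorter chains), Hadh (the second dehydrogenation of shorter chains), the trifunctional protein made from Hadha and Hadhb (both steps and thiolysis for long chains), and the matrix thiolase Acaa2. All 5 RNAs were higher in the dense zone, with a median log2 difference of 2.5. Acaa2, the most abundant of the 33, measured 314, 299, 437 and 708 TPM in the light and 4531, 5233, 4972 and 5122 TPM in the dense fractions of gradient 1. In gradient 2 it measured 364, 371, 427 and 607 TPM in the light and 3043, 3688, 3917 and 3949.9 TPM in the dense fractions. No dense fraction came near a light one, and the light zone means of the gradients nearly coincided (441.0 ± 1.59 TPM, SD, n = 2). Its log2 difference was 3.32 (SE 0.23, limma adjusted p = 0.000328), a TPM ratio of 9.77 ± 2.14 (SD, n = 2 gradients).

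Hadha and Hadhb encode the α and β subunits of the same protein from genes that lie head to head on chromosome 5, 85 bases apart and on opposite strands. Hadha went from 120.5 ± 22.8 TPM in the light to 728 ± 196 TPM in the dense zone, and Hadhb from 108 ± 26.2 to 616 ± 137 TPM (SD, n = 2 gradients). The log2 differences, 2.59 (SE 0.28) and 2.5 (SE 0.30), lay within each other's error. Echs1 and Hadh had the smallest differences of this group, 1.65 (SE 0.18) and 1.60 (SE 0.18) on the log2 scale, TPM ratios of 3.17 ± 0.573 and 3.03 ± 0.0413.

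The matrix isomerases Eci1 and Eci2 and the reductase Decr1 let unsaturated chains enter the spiral, and all 3 RNAs were higher in the dense zone. Their log2 differences were 2.89 for Eci1 (SE 0.30), 1.98 for Decr1 (SE 0.24) and 1.21 for Eci2 (SE 0.26, limma adjusted p = 0.0088). The Eci1 and Eci2 values differed by far more than either error, in RNAs whose products have related activities. The product of Eci2 is also found in peroxisomes.

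Of the ketone body enzymes on the list, Acat1 makes and splits acetoacetyl-CoA and Bdh1, bound to the inner membrane, interconverts acetoacetate and β-hydroxybutyrate. Acat1 went from 114 ± 23.8 to 653 ± 179 TPM and Bdh1 from 223 ± 38.3 to 659.5 ± 201 TPM between the light and the dense zone (SD, n = 2 gradients). The log2 differences were 2.52 (SE 0.31, limma adjusted p = 0.00121) for Acat1 and 1.57 (SE 0.30, limma adjusted p = 0.00605) for Bdh1.

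The remaining acyl-CoA dehydrogenases serve amino acid breakdown and other tasks: Acad8 acts in valine and Acadsb in isoleucine breakdown, and Acad9 is needed to assemble respiratory complex I. All 6 were higher in the dense zone, with a median log2 difference of 1.74 and a range from 0.94 for Acadsb (SE 0.14) to 2.25 for Acad12 (SE 0.18). Acad12 and Acad10 are neighbours, 2087 bases apart on chromosome 5, and were low, at 3.8 and 10.6 TPM in the light and 20.8 and 40.2 TPM in the dense zone (means of 2 gradients). Acad11 was much more abundant, at 239 ± 30.9 TPM in the light and 938 ± 220.5 TPM in the dense zone (SD, n = 2 gradients).

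The matrix medium-chain acyl-CoA synthetases Acsm1, Acsm3 and Acsm5, encoded together on chromosome 7, were all higher in the dense zone. Acsm1 measured 56.2, 66.3, 90.5 and 121 TPM in the light and 742, 835, 784 and 750.4 TPM in the dense fractions of gradient 1. In gradient 2 it measured 87.7, 96.1, 109 and 148 TPM in the light and 663, 771, 835 and 867 TPM in the dense fractions. The dense zone means of the gradients were nearly equal, 781 ± 4.30 TPM (SD, n = 2), and lay far above the light values. The log2 difference was 3.05 for Acsm1 (SE 0.19, limma adjusted p = 0.000301), 1.97 for Acsm5 (SE 0.34) and 1.02 for Acsm3 (SE 0.17). In Acsm3, unlike the other 2, dense and light fractions overlapped in gradient 2, where fraction 7 had 126 TPM and fraction 19 had 123 TPM.

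The carnitine shuttle was split. Cpt1a, the outer-membrane transferase that controls entry of long chains, had almost the same level at both ends, 207 ± 27.0 TPM in the light and 199.9 ± 25.0 TPM in the dense zone (SD, n = 2 gradients), a log2 difference of −0.01 (SE 0.20, limma adjusted p = 0.967). Its middle zone was lower, at 143 ± 20.6 TPM. Cpt2, the inner-membrane transferase that completes the transfer, went from 57.4 ± 5.06 to 389 ± 132 TPM between the light and the dense zone, a log2 difference of 2.76 (SE 0.33, limma adjusted p = 0.00118). Cpt1a and Cpt2 thus differed in their dense–light values by several times the error of either.

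Cpt1a measured 182, 325, 214 and 183 TPM in light fractions 4 to 7 and 222, 224, 215 and 209 TPM in dense fractions 16 to 19 of gradient 1. In gradient 2 it measured 147, 265, 189 and 151 TPM in the light and 169.5, 181, 191 and 187 TPM in the dense fractions. Fraction 5 was the highest of all fractions in both gradients, in gradient 2 by a margin of less than a percent over fraction 24 (264 TPM), and the other light fractions overlapped with the dense ones. Crat, which moves acetyl groups between CoA and carnitine, had its highest value just below the light zone, 128 TPM in fraction 9 of gradient 1 and 56.5 TPM in fraction 8 of gradient 2. Its level in gradient 1 was 2.59 times that in gradient 2, and its dense–light log2 difference of −0.54 (SE 0.72, limma adjusted p = 0.543) carried the largest error of the 33.

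The long-chain acyl-CoA synthetases are membrane proteins of the outer mitochondrial membrane, the ER and lipid droplets. Of the 4, Acsl1, the main form in liver, was higher in the dense zone (519 ± 30.3 against 803 ± 18.0 TPM, SD, n = 2 gradients), with a log2 difference of 0.65 (SE 0.16, limma adjusted p = 0.0135), the smallest among the 28. After quantile normalization it was 0.34 and did not pass (limma adjusted p = 0.116). Acsl4, which prefers arachidonate, had a log2 difference of 0.59 (SE 0.42, limma adjusted p = 0.257).

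Acsl5 measured 56.7, 54.1, 58.3 and 60.2 TPM in the light and 24.3, 23.2, 18.6 and 21.9 TPM in the dense fractions of gradient 1, against 62.5, 55.4, 56.7 and 63.7 TPM in the light and 37.1, 46.3, 44.9 and 45.4 TPM in the dense fractions of gradient 2. The light values of the gradients matched closely while the dense values of gradient 2 were well above those of gradient 1. The log2 difference of −0.90 (SE 0.33, limma adjusted p = 0.0564) missed the threshold without the block. Acsl3, a form of the ER and lipid droplets, measured 3.12, 3.92, 4.05 and 3.31 TPM in the light and 0.976, 0.850, 1.69 and 1.18 TPM in the dense fractions of gradient 1. In gradient 2 it measured 6.24, 5.06, 5.06 and 4.27 TPM in the light and 1.79, 3.01, 2.30 and 2.63 TPM in the dense fractions. Light and dense fractions did not overlap in either gradient, at levels of a few TPM, and the log2 difference was −0.97 (SE 0.33, limma adjusted p = 0.0437) with a TPM ratio of 0.399 ± 0.103 (SD, n = 2 gradients). Acsl3 did not pass after quantile normalization (−0.32, limma adjusted p = 0.476), with a pseudocount of 0.1 (adjusted p = 0.0542) or with narrower zones (adjusted p = 0.0628).

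From the light to the middle zone, 25 of the 33 RNAs were higher in limma, against 23.5% of all genes tested, and 0 were lower, against 24.1%. At an unadjusted p under 0.05, 1 was lower (Cpt1a), against 28.4% of all genes. The median log2 difference was 1.29 over the 33 and 0.05 over all genes. Etfb (2.92, SE 0.28, limma adjusted p = 0.00138) and Acadvl (2.64, SE 0.26, limma adjusted p = 0.00157) had the largest differences, followed by Etfa at 2.53 and Eci1 at 2.34. Cpt1a was at −0.50 (SE 0.20, limma adjusted p = 0.083). With the gradient as a block, 28 were higher (37.2% of all genes) and 2 were lower (35.0% of all genes): Bdh1 (adjusted p = 0.013), Acadsb (adjusted p = 0.0198) and Crat (adjusted p = 0.022) joined the higher ones in limma, and the lower ones were Cpt1a (adjusted p = 0.00586) and Acsl3 (adjusted p = 0.00438). All 4 middle fractions exceeded all 4 light fractions in both gradients in 25 RNAs, against 24.8% of all genes, and lay below them in 3, Acsl3, Acsl5 and Cpt1a, against 20.7%.

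From the middle to the dense zone, 13 of the 33 were higher in limma, against 4.79% of all genes tested, and 0 were lower, against 22.5%. After quantile normalization 11 were higher, against 10.3% of all genes, and 0 lower, against 13.7%. At an unadjusted p under 0.05, 22 were higher, against 8.87% of all genes, and 0 were lower, against 31.5%. The median log2 difference was 0.64 over the 33 and −0.28 over all genes. Acaa2 (1.32, SE 0.23, limma adjusted p = 0.0127) and Acsm1 (1.28, SE 0.19, limma adjusted p = 0.00841) had the largest differences, and Acadl, Bdh1, Hadhb and Hadha lay between 1.04 and 1.10. After quantile normalization Acaa2 was at 1.05 (limma adjusted p = 0.0598). With the gradient as a block, limma called 26 higher (14.1% of all genes) and 1 lower, Crat (−0.93, adjusted p = 0.00183), against 39.3% of all genes. The other 6, Acad10, Acsl3, Acsl5, Acsm3, Echs1 and Eci2, did not pass in either fit. All 4 dense fractions exceeded all 4 middle fractions in both gradients in 24 RNAs, against 11.9% of all genes, and lay below them in Crat, against 28.6%.

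These contrasts separated RNAs with similar dense–light differences. Bdh1 and Echs1 differed by 1.57 and 1.65 between the dense and the light zone on the log2 scale. Echs1 had most of that difference by the middle zone (1.52, limma adjusted p = 0.00224) and little between the middle and dense zone means (0.13, limma adjusted p = 0.654). Its TPM peaked between these 2 zones, at 1076 in fraction 15 of gradient 1 and 1171 in fraction 14 of gradient 2, and then went down. Bdh1 had 0.50 by the middle zone (limma adjusted p = 0.218) and 1.07 beyond it (limma adjusted p = 0.0481). Etfb had 2.92 of its 3.54 by the middle zone, whereas Acaa2 had 2.01 of its 3.32. Etfb, too, peaked between the middle and dense zones, in fraction 15 of both gradients. Acsm3 had its highest zone mean in the middle (172 ± 19.5 TPM) and 157 ± 6.24 TPM in the dense zone, and the sign of this last difference was not the same in the 2 gradients, as was also the case for Eci2. Acsm3 measured 157, 148, 164 and 165 TPM in the middle and 186, 150.0, 133 and 177 TPM in the dense fractions of gradient 1, and 187, 171, 194 and 192 TPM in the middle and 171, 170.0, 146 and 123 TPM in the dense fractions of gradient 2. The zones overlapped in both gradients. Eci2 measured 517, 538, 576 and 571 TPM in the middle and 666, 638, 639.6 and 669.7 TPM in the dense fractions of gradient 1, and 418, 429.7, 432 and 429.6 TPM in the middle and 419.8, 437, 428 and 397 TPM in the dense fractions of gradient 2. Its dense values were all above the middle ones in gradient 1 and overlapped with them in gradient 2.

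**Figure D2:**
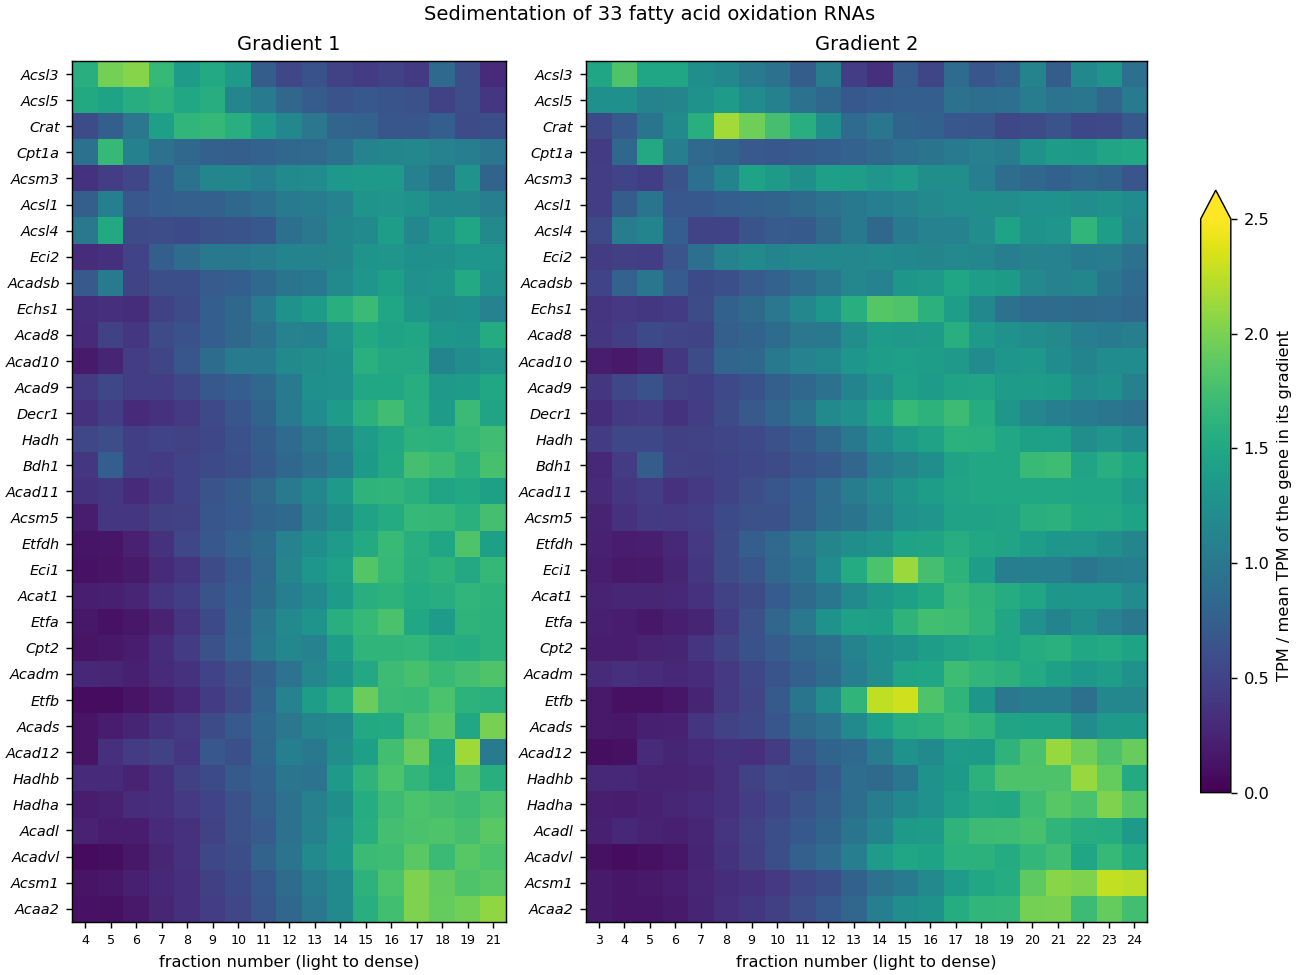
TPM of each of the 33 RNAs in every fraction of both gradients, divided by the gene's mean over its gradient and sorted by center of sedimentation. Most RNAs are low at the top of the gradient and high from about fraction 14 down, and Acsl3, Acsl5 and Crat, with centers of 10.0, 10.7 and 11.0, show the opposite or a peak in the upper fractions.

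The center of sedimentation, the mean fraction number weighted by TPM over the 17 fractions present in both gradients, had a median of 14.3 ± 0.164 over the 33 RNAs (SD, n = 2 gradients) and 11.3 over all genes tested. Acaa2 (15.5 ± 0.075), Acsm1 (15.4 ± 0.110) and Acadvl (15.2 ± 0.070) had the densest centers, and Acsl3 (10.0 ± 0.649), Acsl5 (10.7 ± 0.923), Crat (11.0 ± 0.219) and Cpt1a (12.2 ± 0.193) the lightest (SD, n = 2 gradients). Acaa2 and Acsm1 differed by about their spread and changed order between the gradients. Acadvl was lighter than Acaa2 in both gradients, at 15.29 against 15.57 and 15.19 against 15.46. The means of Acsl3 and Acsl5 lay within their spread, although Acsl3 was lighter in each gradient (9.56 against 10.04 and 10.48 against 11.35). Acsl5 and Crat also lay within their spread and changed order between the gradients. Each profile was also similar between the mice: Pearson's R over the 17 shared fractions had a median of 0.964 over the 33, from 0.805 for Acsl3 to 0.993, and was over 0.9 in 26 of them, against 49.8% of all genes, while over all genes tested the median was 0.899. Neighboring fractions are not independent, so these values are descriptions.

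The fraction with the highest TPM was the same in both gradients for 8 of the 33 RNAs, against 38.1% of all genes. Gradient 1 has no fractions 20 and 22 to 24, and over the 17 shared fractions it was the same for 10 of the 33, against 41.7% of all genes. No RNA peaked in fractions 10 to 13 of either gradient. The same 4, Acad10, Echs1, Eci1 and Etfb, peaked in fractions 14 and 15 of both, Etfb at 3546 TPM in fraction 15 of gradient 1 and 3078 TPM in fraction 15 of gradient 2. In gradient 1, 15 peaked in fractions 16 to 19 and 9 in fraction 21, and in gradient 2, 10 peaked in fractions 16 to 19 and 13 in fractions 20 to 24. The 5 that peaked above fraction 10 in gradient 1 were Acsl3, Acsl4, Acsl5, Cpt1a and Crat, and the 6 in gradient 2 were Acsl3, Acsl5, Acsm3, Cpt1a, Crat and Eci2.

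**Figure D3:**
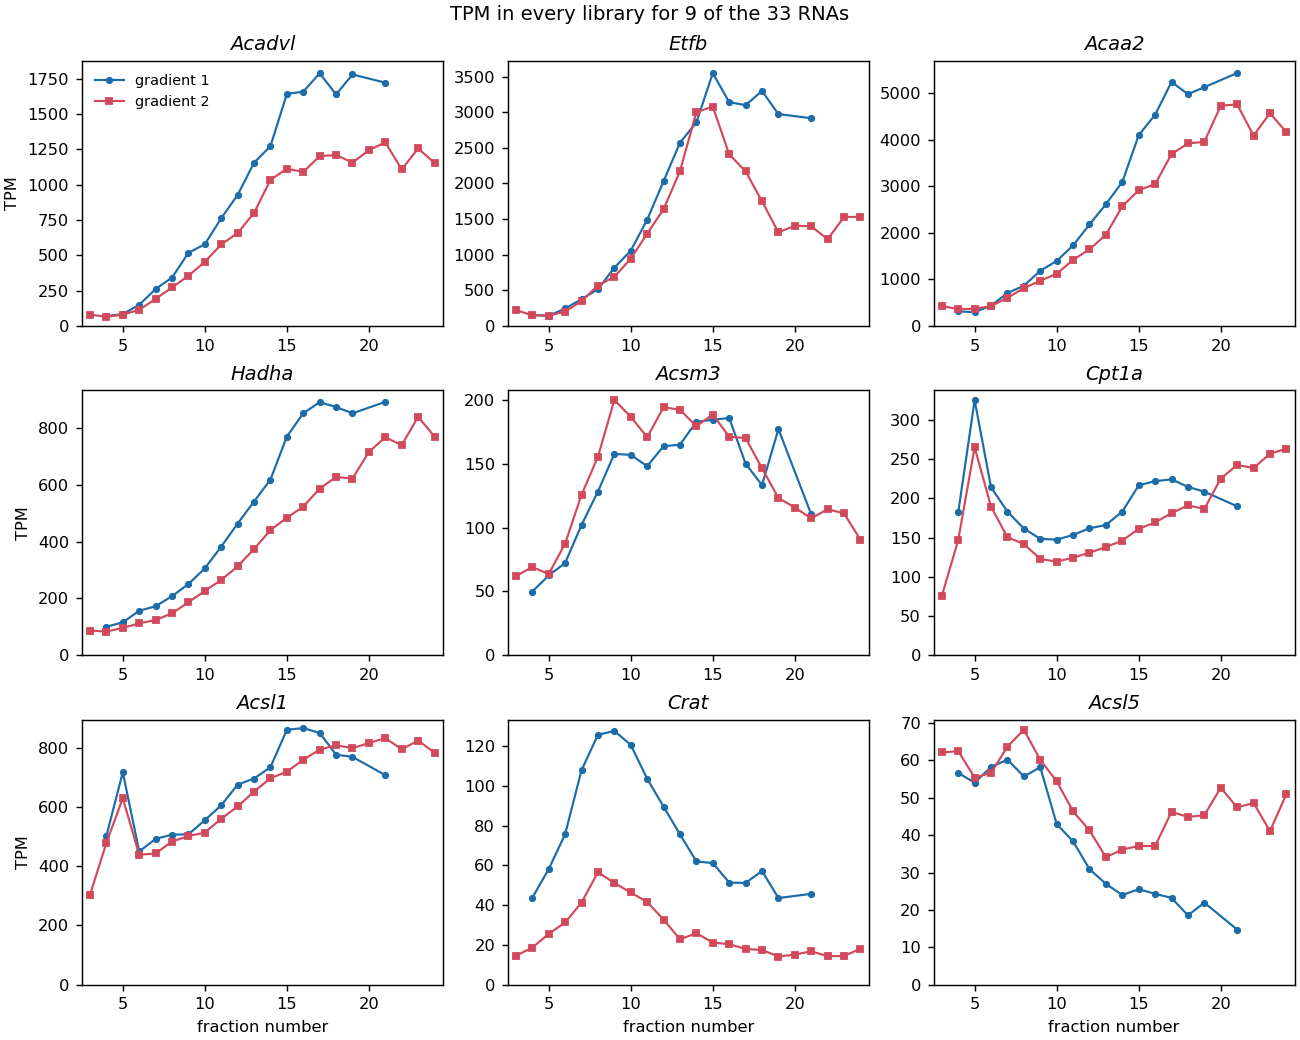
TPM of 9 RNAs against fraction number, with 1 line per gradient and 1 point per library. Acadvl, Acaa2 and Hadha stay high to the end of the gradient, Etfb peaks in fraction 15 and then goes down in gradient 2, and Cpt1a and Acsl1 show a spike in fraction 5.

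Profiles of the 33 resembled each other. Over the 528 pairs, the median Pearson's R of TPM profiles was 0.773 over the 22 fractions of gradient 2 and 0.90 over the 17 fractions of gradient 1, and over all pairs of genes tested the medians were 0.117 and 0.067. Subunits of the trifunctional protein had similar profiles (Hadha with Hadhb, R = 0.983 in gradient 1 and 0.975 in gradient 2). The flavoprotein subunits had R = 0.979 and 0.90 (Etfa with Etfb), while Hadha with Acaa2 (0.994 and 0.991), Acsm1 with Hadha (0.998 and 0.990) and Eci1 with Etfb (0.995 and 0.988) were at least as similar although their products are not subunits of 1 complex.

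Relatives in sequence or function did not always sediment alike. Acsm1 with Acsm5 had R = 0.991 and 0.943, but Acsm1 with Acsm3 had 0.597 in gradient 1 and −0.0747 in gradient 2. Cpt1a with Cpt2 had −0.0171 and 0.486. Acad10 with Acad12, which may share reads, had 0.840 and 0.755. The median R with the other members was negative in both gradients for Acsl5 (−0.933 and −0.699), Acsl3 (−0.880 and −0.624) and Crat (−0.534 and −0.547), and low for Cpt1a (0.093 and 0.395).

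Fractions 20 and 22 to 24 were sequenced in gradient 2 alone, so that values there have no replicate. The mean of fractions 22 to 24 over the mean of fractions 16 to 19 had a median of 0.905 over the 33, from 0.635 to 1.59, and of 0.915 over all genes tested. The spread was close to that of all genes: 5 had a ratio over 1.25 (Acad12, Acsl3, Acsm1, Cpt1a and Hadha), against 14.8% of all genes, and 9 had a ratio under 0.8 (Acad8, Acadsb, Acat1, Acsm3, Decr1, Echs1, Eci1, Etfa and Etfb), against 25.4% of all genes. Acsm1, for example, reached 1132, 1276 and 1257 TPM in fractions 22 to 24, a ratio of 1.56, and Acaa2 measured 4725 TPM in fraction 20 and 4158 TPM in fraction 24, with a ratio of 1.17. The trifunctional subunits had ratios of 1.33 (Hadha) and 1.22 (Hadhb), while the flavoprotein subunits had 0.680 (Etfa) and 0.747 (Etfb). Decr1, at 0.635, and Echs1, at 0.669, were the lowest.

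At the top of the gradient, some of the RNAs had a spike in fraction 5. The ratio of fraction 5 to the mean of fractions 6 and 7 exceeded 1.25 in both gradients for 5 of the 33, against 24.6% of all genes tested. They were Acsl4 (2.60 in gradient 1 and 1.78 in gradient 2), Acadsb (1.84 and 1.52), Bdh1 (1.64 and 1.51), Cpt1a (1.64 and 1.56) and Acsl1 (1.52 and 1.43). The ratio was under 1 in both gradients for 19, against 40.7% of all genes, lowest in gradient 1 for Acadvl (0.414) and in gradient 2 for Acad10 (0.447). The median over the 33 was 0.803 in gradient 1 and 0.921 in gradient 2, and over all genes 0.993 and 1.01.

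The 5 RNAs with the spike had long 3′ untranslated regions (UTRs), with a median of 1895 bases (1574 to 4640) in GENCODE M21, against 587.5 bases (63 to 2110) for the other 28. Among all genes with both values, the median 3′ UTR was 1945 bases for the 2684 with a ratio over 1.25 in both gradients and 741 bases for the 8135 others. Across the 33 genes, the log2 ratio and the log2 length of the 3′ UTR had a Pearson's r of 0.778 in gradient 1 and 0.814 in gradient 2 (Spearman's rho 0.759 and 0.784). Across all genes r was 0.429 and 0.368 (rho 0.501 and 0.459). Genes are not independent replicates and share these libraries, so no test was made. A long 3′ UTR did not always go with the spike: Crat (2110 bases) and Acat1 (2026 bases) had ratios under 1 in both gradients.

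**Figure D4:**
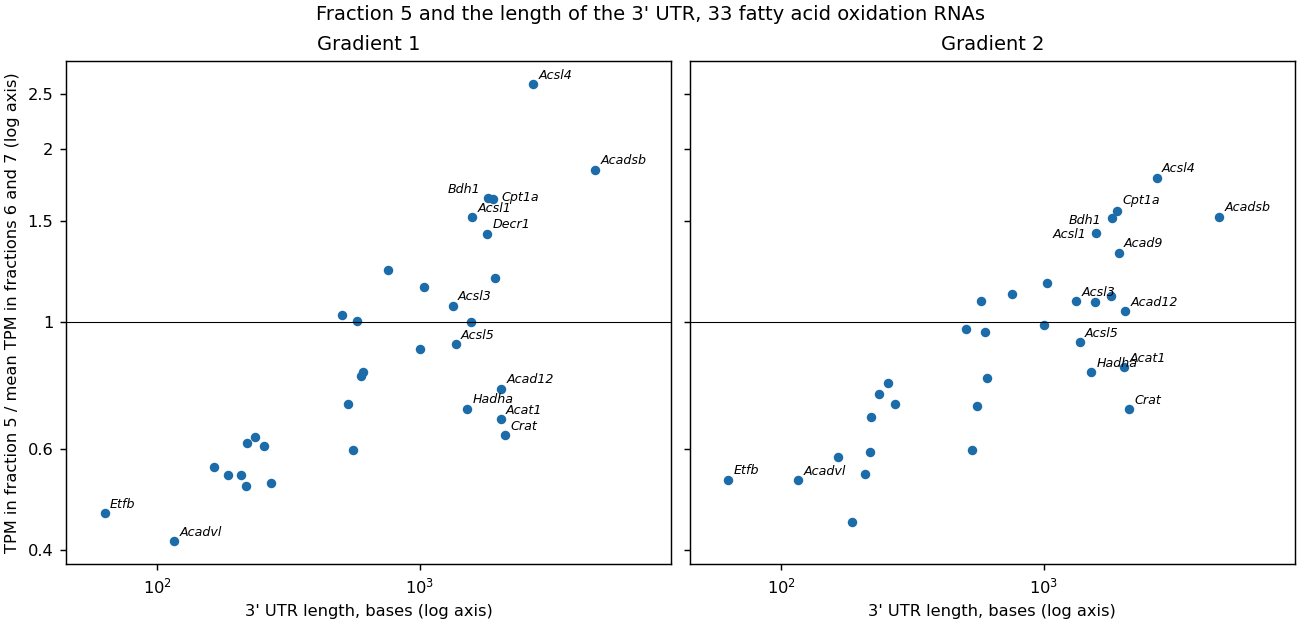
Ratio of TPM in fraction 5 to the mean of fractions 6 and 7 against the length of the 3′ UTR, both on log axes, for the 33 RNAs and 1 panel per gradient. The ratio tends to be higher for longer 3′ UTRs (Pearson's r 0.778 and 0.814), and Acsl4, Acadsb, Bdh1, Cpt1a and Acsl1 lie over 1.25 in both panels.

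Features of the transcripts were set beside the dense–light difference. Arginine codons among the first 30 codons had a median of 4 (1 to 7) in the 28 RNAs higher in the dense zone, and 23 of the 28 (82.1%) had at least 3. In the other 5 RNAs (Acsl3, Acsl4, Acsl5, Cpt1a and Crat), the median was 0 (0 to 2) and none had at least 3. This split holds for the fit without the block. With the block, Acsl4, with 0 codons, was also higher (limma adjusted p = 0.00301). After quantile normalization, Acsl1, with 4, did not pass (limma adjusted p = 0.116). Over 10801 genes with a reading frame, the median was 2, and 32.2% had at least 3. Exceptions within the 28 were Acad11 and Etfdh, with 1 each, and Acaa2, Eci2 and Hadh, with 2 each. Acsl1 had 4, as many as Cpt2, with a dense–light difference of 0.65 against 2.76.

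Across the 33 genes, the number of arginine codons and the dense–light log2 difference had a Pearson's r of 0.527 in gradient 1 and 0.520 in gradient 2 (Spearman's rho 0.373 and 0.384), whereas over all genes r was 0.092 and 0.084 (rho 0.089 and 0.079). The difference was smaller for longer transcripts, with rho of −0.686 in both gradients (Pearson's r −0.675 and −0.631 with log2 length), against −0.164 and −0.203 over all genes. For the length of the 3′ UTR, rho was −0.636 and −0.634, against −0.309 and −0.345 over all genes. Acsl3, Acsl4, Acsl5, Cpt1a and Crat had both few arginine codons and long transcripts, 3950 to 5280 bases against a median of 2859 over the 33. The relations with arginine codons and with length were not separated. These relations are across genes, with no test.

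**Figure D5:**
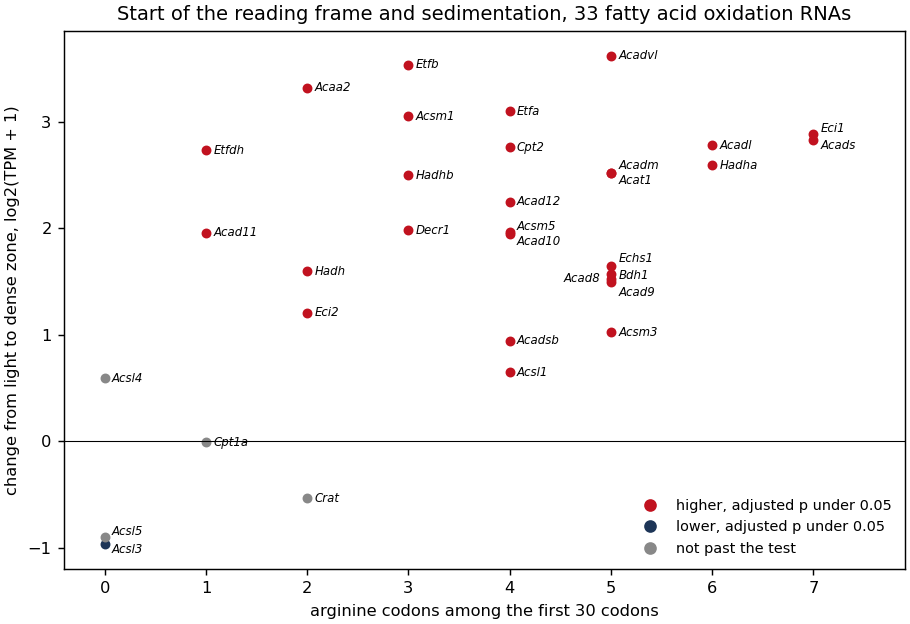
Number of arginine codons among the first 30 codons of each reading frame against the dense minus light difference on the log2(TPM + 1) scale, for the 33 RNAs. Acsl3, Acsl4 and Acsl5 have 0 codons, Cpt1a 1 and Crat 2, and all 23 RNAs with at least 3 have differences above 0. Acsl4 passed as higher only with the gradient as a block.

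Other genes of the pathway were described as a second list. Of 37 listed, 31 were tested, and between the dense and the light zone 19 were higher (22.3% of all genes), 4 were lower (39.6% of all genes) and 8 did not pass, with a median log2 difference of 1.37. With the block 21 were higher, against 30.5% of all genes, and 7 lower, against 50.0%. Slc25a20, the carrier that exchanges carnitine esters across the inner membrane, differed by 1.52 (SE 0.26, limma adjusted p = 0.0038).

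The largest differences on this list were those of Acot13, a thioesterase found at mitochondria (3.11, SE 0.23), Fabp1, the cytosolic fatty acid-binding protein of liver (2.95, SE 0.29), and Pcca, a subunit of propionyl-CoA carboxylase (2.94, SE 0.16, limma adjusted p = 0.000301). Fabp1 encodes no matrix protein. It had 4724 and 4361 TPM in the light and 57657 and 42939 TPM in the middle zone of gradients 1 and 2, and its dense–middle log2 difference was −0.57 (limma adjusted p = 0.211). The 4 that were lower in the dense zone, named after their values were seen, were Slc22a5, the carnitine transporter of the plasma membrane (−2.43, SE 0.30, limma adjusted p = 0.00124), Cd36, a fatty acid receptor of the cell surface (−1.50), and the transcriptional regulators of fatty acid oxidation Ppara (−0.76) and Ppargc1a (−0.66).

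The dense–light pattern was not particular to fatty acid oxidation. Of 23 RNAs of the tricarboxylic acid cycle and pyruvate dehydrogenase, 21 were higher in the dense zone and 0 lower in limma, against 22.3% and 39.6% of all genes, with a median log2 difference of 2.21 and a median center of 14.1. Of 19 peroxisomal oxidation RNAs, 13 were higher and 0 lower in limma (22.3% and 39.6% of all genes), with a median of 1.75 and a median center of 13.7. The cytochrome P450 enzymes of the ER lay elsewhere: of 53 tested, 0 were higher in limma, against 22.3% of all genes, with a median of −1.24 and a median center of 10.0. Of the 53, 23 were lower, a share near the 39.6% of all genes, and 48 with the block, against 50.0% of all genes.

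Together the 33 RNAs made up 0.479 ± 0.029% of TPM in the light zone, 1.36 ± 0.20% in the middle zone and 2.37 ± 0.49% in the dense zone (SD, n = 2 gradients). Each gradient showed this order, with 0.500%, 1.5% and 2.71% in gradient 1 and 0.459%, 1.22% and 2.02% in gradient 2. Acaa2 alone gave 6.06% to 19.9% of their sum in gradient 1 and up to 23.3% in gradient 2. Because TPM are shares, a very abundant RNA lowers the values of all others in its fraction. Rpph1, the RNA of ribonuclease P, took 25.0% of TPM in fraction 4 of gradient 1 and 13.4% in fraction 4 of gradient 2, and 0.103% and 0.10% of the middle zone. With the light zone restricted to fractions 6 and 7, a choice made after the data were seen, 28 of the 33 were higher in the dense zone in limma, against 20.0% of all genes, with a median log2 difference of 1.93 over the 33 and −0.48 over all genes.

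The identity of some reads is uncertain, because whether the counting used strand was not stated. In GRCm38, Acsl3 overlaps Utp14b on the same strand, and the microRNA genes Mir1960, Mir6400 and Mir7051 lie on the same strand within Hadhb, Decr1 and Etfb. Genes on the opposite strand that were in both tables overlap Acadvl (Dvl2), Acad11 (Ackr4), Acadsb (Fgfr2), Acsl5 (Zdhhc6), Acsm3 (Eri2), Acsm5 (Pdilt), Crat (Dolpp1), Echs1 (Paox) and Etfdh (4930579G24Rik). All these overlaps are between whole gene spans, introns included. Whether exons overlap, as shared reads would require here, was not examined. Paralogs such as the Acsm and Acsl families and the Acad10 and Acad12 pair may also share reads.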

How the data were processed

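RNA of 39 fractions from 2 gradients was analysed. The authors depleted ribosomal RNA, made stranded libraries, demultiplexed them with bcl2fastq 2.16.0.10, pseudo-aligned reads with Kallisto (version not given in the sources used here) to mm10 RefSeq transcripts. The authors deposited TPM values per gene, in a table for each gradient. How transcripts were summed to genes was not stated. Depth is not known from TPM. TPM were averaged as log2(TPM + 1) over 4 fractions per zone and gradient, keeping the genes whose mean TPM was 1 or more, and fitted with limma 3.58.1 (trend in eBayes, R 4.3.3) over 3 zones. The code was tested on simulated data. Profiles and features used Python 3.11.15, NumPy 2.4.6, pandas 2.3.3 and SciPy 1.17.1, and figures matplotlib 3.10.9. The gradients' deviations from the zone means correlated across genes between dense and light (r = 0.540), middle and light (r = 0.665) and dense and middle zones (r = 0.798), so the gradient was also fitted as a block. All 33 genes could be named, with values per library for the 2 largest differences each way per contrast, the 2 most abundant genes and those with opposite signs between gradients; Cpt1a and Acsl5 were added after their values were seen. The members and lists were chosen with earlier results of these data known. P-values rest on 2 mice. Some genes that the naming rule covers are not reported here. Alternatives were another pseudocount, filter, scaling, zone width, gradient left out and block.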

Additional observations from a re-analysis of the deposited data

How the results depend on the processing

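The number of RNAs lower in the dense than in the light zone, 1 as reported, was 3 with the replicate block and 0 with a pseudocount of 0.1, with a mean TPM of at least 10 (where Acsl3 was not tested), with quantile normalization and with narrower zones. The number lower in the middle than in the light zone, 0 as reported, was 2 with the replicate block and 1 without the 50 most abundant genes, with quantile normalization and with narrower zones. Between the dense and the middle zone, the replicate block gave 26 higher and 1 lower in place of 13 and 0. The cause was not tested, other than the untested Acsl3. The median center was 15.2 over all fractions in place of 14.3, since these include denser fractions, and the median pairwise R was 0.90 in gradient 1 in place of 0.773 in gradient 2. Cpt1a changed sign, to 0.12, with the light zone at fractions 6 and 7, and was at −0.37 (limma adjusted p = 0.131) after quantile normalization. It passed the test in none of these cases. With the light zone at fractions 6 and 7, Acsl4 was at 1.05 in place of 0.59 (limma adjusted p = 0.0873). Crat was then at −0.92 in place of −0.54 (limma adjusted p = 0.322). Leaving out each gradient in turn gave a median dense–light difference of 1.86 to 2.11 and a median center of 14.2 to 14.4.

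Among the 37 named differences, Acsl3 did not pass with a pseudocount of 0.1 (−1.32, limma adjusted p = 0.0542), quantile normalization (−0.32, adjusted p = 0.476) or narrower zones (−0.95, adjusted p = 0.0628), nor Acsl1 (0.34, adjusted p = 0.116) and the dense–middle difference of Acaa2 (1.05, adjusted p = 0.0598) with quantile normalization, which moved the median of all genes from −0.43 to −0.05 between the dense and the light zone. Relative to that median, 30 of the 33 were higher as deposited and 29 after quantile normalization. The unknown depth limits what can be said of Acsl3 and Acad12, the least abundant RNAs.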
